A study of Mus musculus with 4 samples.

Results

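The genes described here are 5 members of the Krüppel-like factor family, Klf2, Klf4, Klf6, Klf9 and Klf10, taken by symbol from the 31053 genes of the count tables. They were followed across the cell classes of the adult mouse brain and between brains digested with and without inhibitors of transcription and translation. Each of 4 libraries came from the whole brain of 1 male mouse (C57BL/6J, postnatal day 90) taken apart by enzymatic digestion. In 2 mice no inhibitor was used. In the other 2, actinomycin D and triptolide, which block transcription, were present from perfusion through dissection and digestion, and anisomycin, which blocks translation, was present in dissection and digestion. The comparison asks which RNA differs when cells are prevented from making new RNA while they are being taken apart. RNA was counted from the 3′ end as unique molecular identifiers (UMIs, 1 per captured RNA molecule) with the version 2 droplet kit, and the labels place all 4 libraries in the same batch.

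Krüppel-like factors are transcription factors that bind GC-rich DNA through zinc fingers at their carboxyl end. Klf2 and Klf4 are best known in the endothelial lining of blood vessels, where laminar flow raises them through the MEK5, ERK5 and MEF2 route and where they keep the vessel wall anti-inflammatory and anti-thrombotic. Klf2 also restrains activation of monocytes and T cells, and Klf4 helps direct monocyte differentiation. Klf6 was first known as a factor of injury and of growth control and acts in inflammatory macrophages. Klf9 is a target of thyroid hormone and glucocorticoids and promotes maturation of neurons and oligodendrocytes. Klf10 is an early target of transforming growth factor beta.

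Klf2 (ENSMUSG00000055148) lies on the plus strand of chromosome 8 at 72319033 to 72321656 in GRCm38 and has 3 exons in its first annotated transcript. Klf4 (ENSMUSG00000003032) lies on the minus strand of chromosome 4 at 55527143 to 55532466, with 5 exons. Klf6 (ENSMUSG00000000078) lies on the plus strand of chromosome 13 at 5861482 to 5870394, with 4 exons. Klf9 (ENSMUSG00000033863) lies on the plus strand of chromosome 19 at 23141226 to 23168134, with 2 exons, and the microRNA gene Mir1192 overlaps it on the same strand. Klf10 (ENSMUSG00000037465) lies on the minus strand of chromosome 15 at 38291463 to 38300706, with 4 exons. These positions show that the 5 genes sit on 5 chromosomes and share no neighbourhood.

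The promoters of 4 of the 5 genes are shown because the genes differ in which cells carry them and in which cells they move. Each line holds the 250 bases before the RefSeq transcript start, read 5′ to 3′ along the gene from GRCm38.p6. Capitals mark matches to a MEF2 site, the cyclic AMP response core TGACG, the AP-1 site TGANTCA or the CCAAT box, on either strand.
Klf2: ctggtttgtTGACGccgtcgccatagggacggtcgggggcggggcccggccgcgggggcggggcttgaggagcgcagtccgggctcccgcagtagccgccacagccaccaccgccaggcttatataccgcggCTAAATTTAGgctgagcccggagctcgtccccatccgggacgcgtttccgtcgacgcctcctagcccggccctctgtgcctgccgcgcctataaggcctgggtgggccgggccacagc
Klf4: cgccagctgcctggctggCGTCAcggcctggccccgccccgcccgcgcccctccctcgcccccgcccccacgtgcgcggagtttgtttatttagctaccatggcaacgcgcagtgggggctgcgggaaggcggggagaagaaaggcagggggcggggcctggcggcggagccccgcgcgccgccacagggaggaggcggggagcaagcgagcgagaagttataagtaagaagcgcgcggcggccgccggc
Klf6: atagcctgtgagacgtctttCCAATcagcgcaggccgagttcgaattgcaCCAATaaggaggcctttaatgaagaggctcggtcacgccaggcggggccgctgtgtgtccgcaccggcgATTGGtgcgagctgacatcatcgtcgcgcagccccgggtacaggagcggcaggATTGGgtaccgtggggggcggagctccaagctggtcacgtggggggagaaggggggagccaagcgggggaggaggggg
Klf9: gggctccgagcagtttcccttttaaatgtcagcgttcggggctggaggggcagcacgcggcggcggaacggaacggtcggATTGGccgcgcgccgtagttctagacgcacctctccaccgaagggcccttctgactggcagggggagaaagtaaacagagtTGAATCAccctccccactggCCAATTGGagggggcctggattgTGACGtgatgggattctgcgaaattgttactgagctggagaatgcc

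The windows are chr8:72318812-72319061 for Klf2, chr4:55532476-55532725 on the minus strand for Klf4, chr13:5861239-5861488 for Klf6 and chr19:23140976-23141225 for Klf9. The Klf2 window held 1 MEF2 match, which began at -118 counted from the transcript start, and 2.919% of 32851 mouse promoters of the same length held such a match. The core TGACG matched at -241 in Klf2, at -232 in Klf4 and at -46 in Klf9, against 17.77% of promoters. The AP-1 letters matched in Klf9, at -89, against 6.749% of promoters. CCAAT boxes matched at 4 places in Klf6 and 3 in Klf9, the last 2 of which overlap each other, against 33.85% of promoters with at least 1. The GC box GGGCGG, not capitalised, matched 2 times in Klf2, 4 times in Klf4 and 1 time in Klf6, against 32.74% of promoters. None of the 4 windows held the letters of a CArG box, which 1.467% of promoters held. Their GC contents of 71.2%, 74%, 64.8% and 59.6% for Klf2, Klf4, Klf6 and Klf9 lay above the median of 52.4% over all promoters.

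After filtering, 9811 cells with 20519889 UMIs were kept, 2081 to 2796 per mouse with a median of 1440 to 1681 UMIs per cell. All 23 clusters carried at least 3 detected markers of a class and were named after it with the ending -like. Of these, 9 classes had at least 20 cells in every mouse and were tested. Of the barcodes kept, 44 occur in more than 1 library. Endothelial-like cells made up 13.9% and 17.6% of cells without inhibitors and 14.99% and 20.5% with them, and microglia-like cells 30.8% to 32.2% in all 4. The mural-like class needs care. Its larger cluster, of 238 cells, was led by the smooth muscle genes Acta2 and Tagln, then the fibroblast marker Dcn and the smooth muscle gene Myh11. It also held 9 endothelial markers. The 10 endothelial markers summed in mural-like cells reached 42.6% to 52.9% of their level in endothelial-like cells.

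Levels are given below as CPM, the UMIs of a gene per 1000000 UMIs of a class in 1 mouse, and they are compared for 1 gene between classes, never between genes. The order of classes was part of why these genes were grouped, so it is described without a test. All 5 genes had their highest mean level over the 4 mice in endothelial-like cells among the 9 classes. For Klf2, Klf4 and Klf10 the 4 endothelial-like values lay above all 4 mural-like values, the next class. For Klf6 and Klf9 the values of these 2 classes overlapped.

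**Figure D1:**
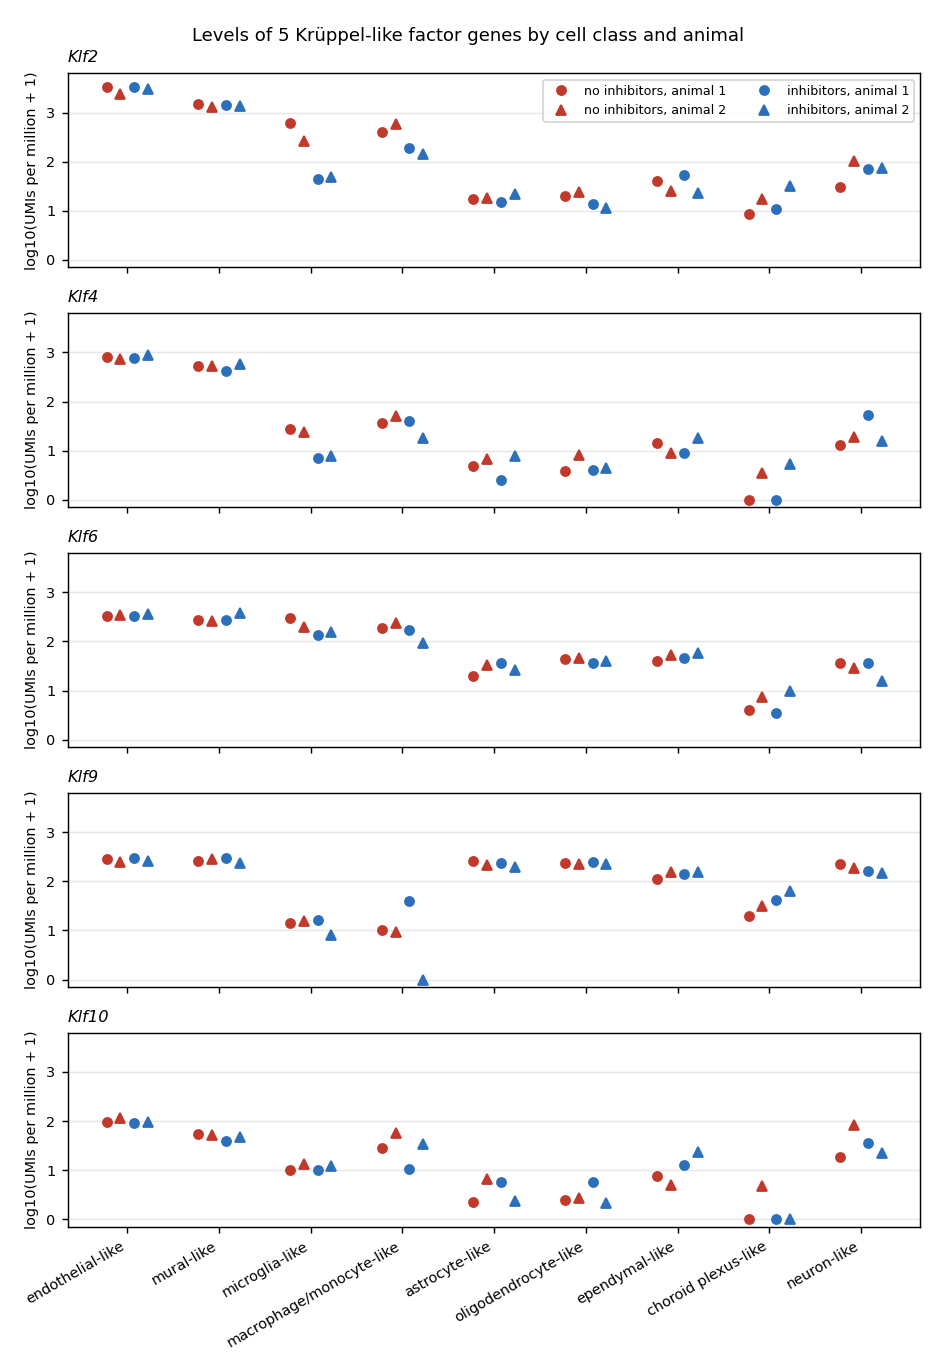
Level of each gene (log10 of CPM plus 1, vertical axis) in the 9 tested classes, each point 1 mouse, coloured by inhibitor group. Endothelial-like and mural-like cells lead for Klf2 and Klf4. Klf9 reaches 81.9% to 93.8% of its endothelial-like level in oligodendrocyte-like cells and 75.3% to 91.9% in astrocyte-like cells. It is low in microglia-like and macrophage/monocyte-like cells.

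Klf2 in endothelial-like cells stood at 3342 and 2360 CPM without inhibitors and at 3280 and 2998 with them. These cells held 74.9% of all Klf2 UMIs in the data. Mural-like cells followed, at 1503 and 1299 without inhibitors and 1419 and 1379 with them. Then came macrophage/monocyte-like and microglia-like cells, whose ranges overlapped and which are treated below. Neuron-like cells ranged from 29.99 to 100 and ependymal-like cells from 22.3 to 52.3. Astrocyte-like cells (14.1 to 20.7), choroid plexus-like cells (7.63 to 30.9) and oligodendrocyte-like cells (10.4 to 23.1) were lowest and overlapped each other.

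Klf4 had a still sharper step from vessels to the rest. Its level in endothelial-like cells was 819 and 745 without inhibitors and 770 and 891 with them, and these cells held 75.3% of its UMIs. Mural-like cells ranged from 423 to 584. The highest value in any of the other 7 tested classes was 51.8, in neuron-like cells of 1 mouse, so no tested class outside vessels came near them. Fibroblast-like cells, too few for a test at 13 to 32 per mouse, held Klf4 at 211 to 277 and Klf2 at 432 to 483 CPM. Endothelial markers in these fibroblast-like cells reached 3.06% to 7.21% of the endothelial level, while Klf4 reached 23.7% to 37.2% of it. In erythrocyte-like cells, also not tested, Klf4 reached 24.4% to 114% and Klf2 26.1% to 73.9% of the endothelial level. The endothelial markers there reached 34.5% to 55.6%.

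Klf6 was shared between vessels and immune cells. It stood at 330 to 366 in endothelial-like and 257 to 384 in mural-like cells, and at 132 to 301 in microglia-like and 93.6 to 237 in macrophage/monocyte-like cells. Endothelial-like cells held 42.2% of its UMIs and microglia-like cells 29.1%. Among the 9 tested classes these 4 lay above the other 5, of which the highest was 55.8, in ependymal-like cells. Choroid plexus-like cells were lowest, at 2.51 to 8.82. Among classes too small for a test, fibroblast-like cells (102 to 194), oligodendrocyte precursor-like cells (39.6 to 164) and lymphocyte-like cells (89.4 to 888) overlapped the macrophage/monocyte-like range, from 78, 15 and 14 UMIs in all. Erythrocyte-like cells overlapped it as well, with Klf6 at 31.7% to 83.5% of the endothelial level and endothelial markers at 34.5% to 55.6% of theirs.

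Klf9 had a different distribution, spread over vessels, macroglia and neurons and low in both microglia-like and macrophage/monocyte-like cells. Endothelial-like (241 to 297), mural-like (238 to 297), oligodendrocyte-like (226 to 244), astrocyte-like (196 to 262) and neuron-like (146 to 222) cells each overlapped the next in order. Ependymal-like cells followed at 113 to 156, and choroid plexus-like cells at 18.3 to 61.8. Microglia-like cells held only 6.91 to 15.4. Macrophage/monocyte-like cells overlapped them at 0 to 39.3, from 6 UMIs in all. Endothelial-like, astrocyte-like and oligodendrocyte-like cells held 29.9%, 22.6% and 19.8% of Klf9 UMIs. Klf10 had 65.1% of its UMIs in endothelial-like cells, where its level was 90.5 to 114, above every other tested class. Mural-like (39.3 to 54.3), neuron-like (17.99 to 81.9) and macrophage/monocyte-like cells (9.82 to 57.1) followed and overlapped in that order, from 50, 19 and 15 UMIs in all. Klf10 in neuron-like cells was 18.5% to 71.7% of the endothelial level, where the endothelial markers were 1.37% to 3.84% of theirs. Microglia-like cells held 9.21 to 12.2.

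Within the vessel classes, sub-clusters were named arterial endothelial-like (260 cells), venous endothelial-like, pericyte-like (129 cells) and smooth muscle-like (35 cells) from their markers, and no sub-cluster met the markers of capillaries. Arterial cells held Klf2 at 4247 and 2234 without inhibitors and 3611 and 3102 with them, and venous cells at 2258 and 2446 and at 3172 and 2785. The arterial and venous ranges overlapped for Klf2 and also for Klf4, which stood at 725 to 1074 in arterial and 753 to 1017 in venous cells. Klf6 was 378 to 513 in arterial and 266 to 366 in venous cells, so that all 4 arterial values lay above all 4 venous ones.

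Pericyte-like cells were unlike the rest of the mural-like class. They gave 1, 0, 2 and 8 Klf2 UMIs in the 4 mice and 1, 0, 0 and 0 Klf4 UMIs, whereas their Klf9 level was 206 to 292, overlapping the endothelial-like range. Smooth muscle-like cells, 7 to 12 per mouse, held Klf2 at 1022 CPM in 1 mouse and at 159 to 200 in the other 3. The mural-like cells in neither sub-cluster held Klf2 at 1599 to 1931 CPM. Those same cells held 10 endothelial markers at a summed 16256 to 18706 CPM and only 7694 to 9330 for the 11 mural markers. Their Klf4 level was 581 to 692 CPM. These cells included a sub-cluster of 36 cells with Ptgds and the fibroblast markers Dcn, Col1a1 and Lum among its top genes. Another, of 89 cells, was led by the haemoglobin genes Hba-a1, Hbb-bs and Hba-a2. The parts of endothelial, fibroblast and blood cell RNA in the mural-like levels were not tested.

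The amount of endothelial RNA in other classes bears on how far a low Klf2 or Klf4 value can be read. In astrocyte-like cells the endothelial markers reached 1.15% to 1.86% of their endothelial level, and Klf2 reached 0.429% to 0.730% and Klf4 0.203% to 0.775% of theirs. In astrocyte-like cells both were thus no higher, relative to endothelium, than the summed endothelial markers. Both also lay below the single markers Cldn5 and Ly6c1 in every mouse. Against Flt1 alone the order was mixed. Klf2 lay above it in replicate 1 without inhibitors (0.489% against 0.402%) and replicate 1 with them (0.429% against 0.355%), and below it in the other mice. Klf4 lay above Flt1 in replicate 1 without inhibitors (0.461%). The source of this Klf2 and Klf4 RNA was not tested. In oligodendrocyte-like cells Klf2 reached 0.570% and 0.980% without inhibitors, where the markers reached 0.415% and 0.670%, and 0.381% and 0.347% with inhibitors, where the markers reached 0.601% and 0.716%. So Klf2 there lay above the marker share in both mice without inhibitors and below it in both with them. Klf9 in astrocyte-like and oligodendrocyte-like cells was 75.3% to 91.9% and 81.9% to 93.8% of the endothelial level, and Klf6 5.69% to 10.9% and 10.4% to 12.9%, all above the marker share. In microglia-like cells the markers reached 0.736% to 1.13%.

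**Figure D2:**
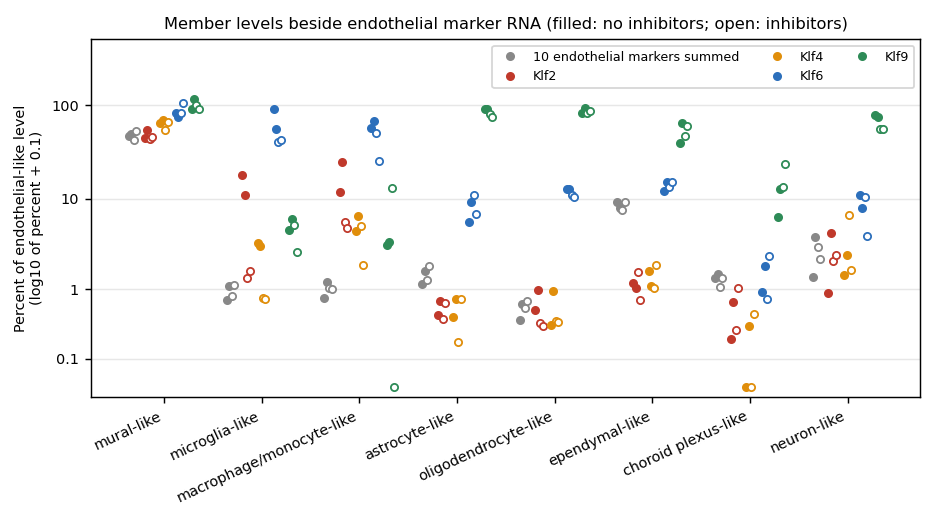
Level of each gene in a class as a percent of its level in endothelial-like cells of the same mouse (vertical axis, log10 of the percent plus 0.1), beside the sum of 10 endothelial markers, 1 point per mouse, filled without inhibitors and open with them. In microglia-like cells Klf2 lies at 17.97% and 11.1% without inhibitors and at 1.34% and 1.61% with them, where the markers lie between 0.736% and 1.13%.

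Counting cells placed endothelial-like above astrocyte-like cells for Klf2 and Klf4, as counting RNA did. After thinning each cell to 1000 UMIs, and leaving out 1433 shallower cells, a Klf2 UMI was expected in 83.5% to 91.4% of endothelial-like cells and in 1.33% to 2.12% of astrocyte-like cells, which stand for background. The shares without thinning were 91.1% to 95.8% and 2.17% to 3.16%, at a median depth of 1584 to 1912 UMIs in endothelial-like and 1415 to 1660 UMIs in astrocyte-like cells. For Klf4 the thinned shares were 48.1% to 53.5% in endothelial-like and 0.141% to 0.561% in astrocyte-like cells. Without thinning they were 64.6% to 66.9% and 0.272% to 1.05%.

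The second comparison was between the inhibitor groups within each class. UMIs were summed over the cells of a class in each mouse and tested with edgeR's quasi-likelihood test over all genes. Calls needed a p under 0.05 after Benjamini-Hochberg adjustment over all genes and a log2 fold change past 0.58 in either direction, and fold changes are given as no inhibitors over inhibitors. With 2 mice in each group an exact permutation test of 1 gene could not go below a two-sided p of 0.333. The p-values here rest on the test's model and, to a degree that differs by gene, on spread shared among genes. For Klf2 in microglia-like cells that sharing was slight.

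In microglia-like cells Klf2, Klf4 and Klf6 were higher in both mice without inhibitors than in both with them, while Klf9 and Klf10 overlapped. Of all 8654 genes tested in this class, 14.7% were higher in both mice without inhibitors in the same way. Klf4 was called and rose 1.93 on the log2 scale, and it was 1 of 5 members called where 0.439% of all genes were. The changes of Klf2 and Klf6 were not called by this test.

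**Figure D3:**
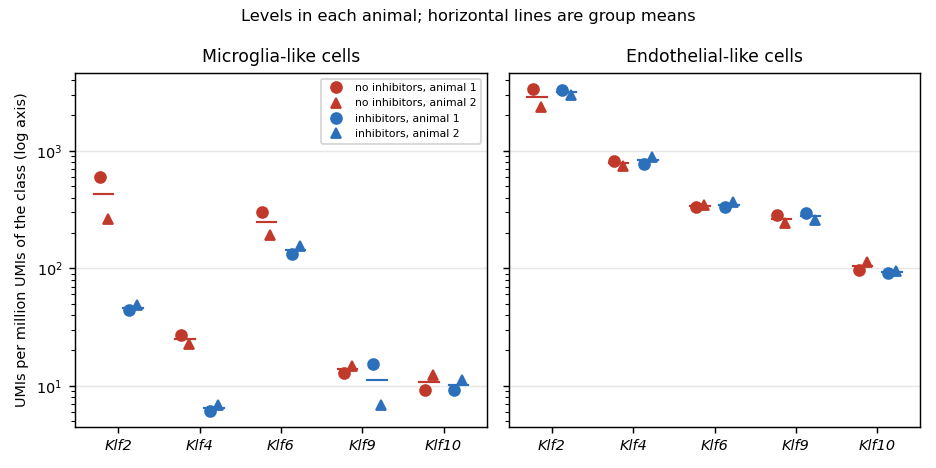
Level of the 5 genes in each mouse (CPM, log axis) in microglia-like and endothelial-like cells, with horizontal lines at the group means. In microglia-like cells the mean of Klf2 is 431 without inhibitors and 46.2 with them, while in endothelial-like cells the groups overlap for every gene but Klf10.

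Klf2 in microglia-like cells stood at 600 and 262 CPM without inhibitors, from 648 and 321 UMIs, and at 44.0 and 48.4 with them, from 43 and 56 UMIs. The group means were 431 ± 239 and 46.2 ± 3.11 (SD, n = 2 mice), a ratio of 9.33. The 2 mice without inhibitors differed from each other by more than the 2 with inhibitors did, and both stood far above these. The log2 fold change was 3.24 (SE 0.75, 95% interval 0.31 to 6.16), with an adjusted p of 0.776 by edgeR's quasi-likelihood test with Benjamini-Hochberg adjustment. The fit gave Klf2 2.24 degrees of freedom in total, against 37.5 for Klf4, so little of its spread was shared from other genes. The same fit without robust weighting gave the same fold with an adjusted p of 1.96e-08 by edgeR. DESeq2 gave 3.25 and an adjusted p of 4.12e-05, so the call depends on how the spread is estimated. Klf2 belongs to the study's consensus list of microglial activation genes, which was drawn from sorted microglia of other mice.

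The Klf2 RNA sat in a minority of microglia-like cells. Of 706 and 843 cells without inhibitors, 42 and 18 held 5 or more Klf2 UMIs, up to 35 in a cell. Of 669 and 901 cells with inhibitors none did, and the most in a cell was 3. Of those 42 and 18 cells, 35 and 12 held no UMI of any of the 10 endothelial markers. The thinned share of microglia-like cells with a Klf2 UMI was 16.8% and 11.0% without inhibitors and 4.48% and 4.58% with them (20.3%, 13.05%, 5.83% and 5.66% unthinned). With inhibitors present Klf2 was at 1.34% and 1.61% of its endothelial level, above the marker share of 0.842% and 1.13% in the same mice.

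Both microglial clusters showed the difference, the clustering having been made without the Krüppel-like and activation genes. In the cluster of 1621 cells led by Tgfbr1, Selplg and Tmem119, Klf2 was 266 and 170 without inhibitors and 30.3 and 49.2 with them. In the cluster of 1498 cells led by Junb, C5ar2 and Ptafr it was 801 and 336 against 54.8 and 47.0. Klf4 in the first was 19.7 and 20.1 against 6.99 and 6.84, and in the other 31.2 and 25.1 against 5.48 and 7.05. Klf6 rested more on the Junb-led cluster, at 362 and 207 against 133 and 141 there and at 200 and 174 against 130 and 161 in the other. These cluster values are given without a test.

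Klf4 in microglia-like cells was rare but steady between mice of a group. It stood at 26.9 and 22.9 CPM without inhibitors and at 6.14 and 6.91 with them, from only 29, 28, 6 and 8 UMIs. The log2 fold change of 1.93 had an SE of 0.39 (95% interval 1.14 to 2.72) and an adjusted p of 0.00433 by edgeR's quasi-likelihood test. DESeq2 gave the same size, 1.95, without a call (adjusted p = 0.49). With inhibitors Klf4 was at 0.797% and 0.776% of its endothelial level, no higher than the share of the summed markers. In replicate 1 with inhibitors it lay above Flt1 alone (0.271%) and Ly6c1 alone (0.601%) and below Cldn5 (0.877%). In replicate 2 it lay below each of them. Leaving out every microglia-like cell with an endothelial marker UMI gave 2.31 and kept the call.

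Klf6 in microglia-like cells was 301 and 192 without inhibitors and 132 and 154 with them. Its mean was 246 ± 77.3 against 143 ± 15.4 (SD, n = 2 mice), and the mouse that was higher for Klf2 was also higher for Klf6. The log2 fold change was 0.80 (SE 0.18, 95% interval 0.402 to 1.205), with an adjusted p of 0.154 by edgeR's quasi-likelihood test. Leaving out that mouse, replicate 1 without inhibitors, reduced the value to 0.46, and 9 of 17 other settings gave a call. Klf9 (0.39, 95% interval -0.46 to 1.24) and Klf10 (0.11, 95% interval -0.80 to 1.01) were not called, and stood at 6.91 to 15.4 and 9.21 to 12.2 CPM, from 55 and 47 UMIs in all.

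In endothelial-like cells, where each of the 5 genes ranked first among the 9 tested classes by its mean, none was called, against 0.0365% of the 8229 genes tested. No member had an unadjusted p under 0.05 in edgeR, and DESeq2 called 0 as well. The log2 fold change of Klf2 was -0.13 (95% interval -0.37 to 0.11). That of Klf4 was -0.08 (-0.29 to 0.13). Values for Klf6 (-0.02, -0.25 to 0.21), Klf9 (-0.07, -0.32 to 0.18) and Klf10 (0.23, -0.12 to 0.57) were as small. The intervals leave room for changes no larger than 0.57 in either direction on the log2 scale. Klf10, at 97.2 and 114 without inhibitors and 90.5 and 95.3 with them, was the only one with no overlap between the groups, as were 14.8% of all genes in that direction.

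**Figure D4:**
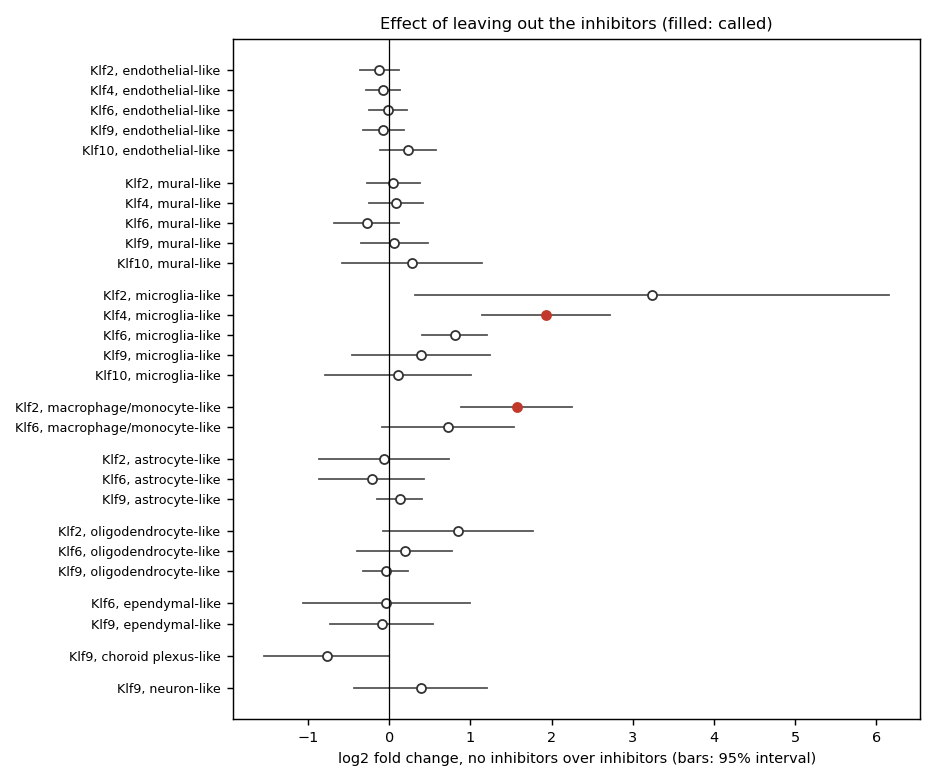
Log2 fold change of each gene, no inhibitors over inhibitors (horizontal axis, bars the 95% interval of edgeR's fit), in the classes where it was tested, filled where called. Klf4 in microglia-like cells (1.93) and Klf2 in macrophage/monocyte-like cells (1.57) are filled, and the endothelial-like values lie between -0.13 and 0.23.

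Whether the effect itself differed between 2 classes was tested in a fit over both classes of the same mice, with the mouse as a block. Between endothelial-like and microglia-like cells the effect of leaving out the inhibitors was smaller in endothelial-like cells for Klf2, with a log2 difference of -3.30 (SE 0.16, adjusted p = 7.65e-86 by edgeR's quasi-likelihood test with Benjamini-Hochberg adjustment). It was also smaller for Klf4 (-2.01, SE 0.40, adjusted p = 0.000252 by edgeR) and for Klf6 (-0.78, SE 0.16, adjusted p = 0.000578 by edgeR). Thus 3 of 5 members were called where 0.33% of 10012 genes were. This fit drew nearly all of its spread from other genes, so its p-values do not carry the difference between the 2 mice without inhibitors. Without replicate 1 of that group the Klf6 difference was -0.43 and not called (adjusted p = 0.739), and the call was also lost without replicate 1 or replicate 2 with inhibitors (-0.76 and -0.82, adjusted p = 0.0627 and 0.173 by edgeR). Over 8 other settings the call held in 8 for Klf2, 7 for Klf4 and 5 for Klf6. Klf9 (-0.47, SE 0.42) and Klf10 (0.10, SE 0.47) were not called.

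No member was called for a difference in effect between endothelial-like cells and the other 3 classes compared. Where counts were low the intervals were wide, so large differences could be missed. They ran from -1.74 to 1.28 for Klf4 against astrocyte-like cells and from -1.45 to 3.24 for Klf10 against oligodendrocyte-like cells. The share of all genes called was 0 against astrocyte-like cells (446 of 9722 at an unadjusted p under 0.05 in edgeR, DESeq2 not run), 0.023% against oligodendrocyte-like cells and 0.135% against mural-like cells. The largest of these differences with an unadjusted p under 0.05 was that of Klf2 against oligodendrocyte-like cells, -0.94 (95% interval -1.80 to -0.08, adjusted p = 0.924 by edgeR). Its level in oligodendrocyte-like cells was 19.0 and 23.1 without inhibitors and 12.5 and 10.4 with them. The change within that class was 0.85 (95% interval -0.08 to 1.77) and was not called (adjusted p = 0.565 by edgeR).

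Macrophage/monocyte-like cells, 56 to 81 per mouse and led by Cd74, H2-Aa and Pf4, held Klf2 at 399 and 587 CPM without inhibitors and at 187 and 145 with them. These values come from 44, 72, 19 and 17 UMIs. Klf2 was called and rose 1.57 on the log2 scale (SE 0.33, adjusted p = 0.0249 by edgeR's quasi-likelihood test), 1 of 2 members tested where 0.952% of 1575 genes were. The call is not firm. It held in 6 of 17 other settings, DESeq2 gave an adjusted p of 0.322, and it was absent (0.95, adjusted p = 0.372) under another doublet rate that had been used first and was replaced after its result was known. Klf6 in these cells was 191 and 237 against 167 and 93.6 and was not called (0.72, adjusted p = 0.643 by edgeR). Their endothelial marker share was 0.790% to 1.21%, well under the 4.83% to 24.9% of Klf2.

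In the remaining classes no member was called by edgeR or DESeq2. All 5 were tested in mural-like cells (0.245% of genes called), 3 in astrocyte-like (0.048%), 3 in oligodendrocyte-like (0.217%), 2 in ependymal-like (0%, with 172 of 4138 genes at an unadjusted p under 0.05 in edgeR and 0 called by DESeq2) and 1 in neuron-like cells (0.0648%). Among the vessel sub-clusters all 5 were tested in arterial cells (0.142%) and 1, Klf9, in pericyte-like cells (0%, with 24 of 557 genes at an unadjusted p under 0.05 in edgeR and 0 called by DESeq2). All 5 were also tested in the endothelial-like and mural-like cells left outside the named sub-clusters (0.0451% and 0.151%). None of these members had an unadjusted p under 0.05. Mural-like values ranged from -0.28 for Klf6 to 0.28 for Klf10, and arterial values from -0.23 for Klf9 to 0.21 for Klf10.

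Klf9 was the only member tested in choroid plexus-like cells, where 4.88% of genes were called. It stood at 18.3 and 30.8 without inhibitors and at 40.2 and 61.8 with them. Its log2 fold change was -0.77 (95% interval -1.54 to -0.01, adjusted p = 0.242 by edgeR), and it was not called. Scaling by total UMIs shifted the median of all genes in this class by -0.17.

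Summed over all cells, where fewer cells of a type and less RNA per cell cannot be told apart, Klf2 showed nothing of its microglial difference. It was 665 and 620 without inhibitors and 670 and 810 with them (log2 fold change -0.12, 95% interval -0.37 to 0.13). None of the 5 members was called or had an unadjusted p under 0.05, and DESeq2 called 0, where 0.0365% of 13690 genes were called by edgeR. Endothelial-like cells gave 12.5% and 18.6% of all UMIs without inhibitors and 16.4% and 22.7% with them, and the part of that share in the summed value was not tested.

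Other gene lists place the members in context. Of 13 immediate-early genes tested in microglia-like cells 8 were called, and each of these rose when inhibitors were left out. The median change of the 13 was 2.58 on the log2 scale, against 0.0005 over all genes. They were Btg2 (1.47), Ier5 (1.30), Atf3 (2.58), Zfp36 (2.83), Jund (2.16), Ier2 (2.79), Junb (2.50) and Dusp1 (5.51). The largest, Dusp1, encodes a phosphatase that switches off stress kinases and stood at 357 and 242 without inhibitors against 10.2 and 3.46 with them. In endothelial-like cells 0 of 11 such genes were called by edgeR or DESeq2 (1 with an unadjusted p under 0.05 in edgeR), with a median of -0.14. Dusp1 was 278 and 162 against 345 and 249 there.

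In macrophage/monocyte-like cells 7 of 9 immediate-early genes tested were called, Btg2, Jun, Zfp36, Ier2, Junb, Fos and Dusp1, from 2.43 for Btg2 to 6.50 for Dusp1. Oligodendrocyte-like cells had Jun (1.15), Junb (3.24) and Fos (5.66) called of 6, and mural-like cells Junb (1.43) and Fos (3.85) of 10. Fos also rose in the mural-like cells outside the named sub-clusters (2.78), and over all cells Zfp36 (2.09) and Junb (2.05) were called of 15. DESeq2 called 7 genes of this list in macrophage/monocyte-like cells, 2 in oligodendrocyte-like cells, 1 in mural-like cells, 0 in the mural-like cells outside the named sub-clusters and 8 over all cells. Klf2 and Klf4 did not share these calls in oligodendrocyte-like or mural-like cells, though Klf4 was too low for a test in the former.

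Genes that Klf2 and Klf4 are known to control in endothelium gave 0 calls of 7 tested in endothelial-like cells by edgeR or DESeq2 (1 with an unadjusted p under 0.05 in edgeR), with a median of -0.05. Cdkn1a, an inhibitor of the cell cycle, was 722 and 588 there without inhibitors and 811 and 830 with them. Plat, the tissue plasminogen activator, was 390 and 532 against 465 and 439, and Tek, the angiopoietin receptor, 362 and 326 against 391.9 and 331. In mural-like cells Edn1, which encodes the vasoconstrictor endothelin, fell by 1.13 on the log2 scale in edgeR and was not called by DESeq2. Its level there was 179 and 194 with inhibitors and 99.6 and 70.1 without them. In endothelial-like cells Edn1 stood at 177 to 191, and the part of endothelial RNA in the mural-like values was not tested.

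Of the route into Klf2, 12 genes of the MEK5, ERK5 and MEF2 pathway and the cerebral cavernous malformation complex, all were tested and none was called in endothelial-like cells by edgeR or DESeq2 (0 with an unadjusted p under 0.05 in edgeR), nor any of 11 in microglia-like cells (2 with such a p). Mef2c was 1167 to 1231 CPM in microglia-like and 109 to 134 in endothelial-like cells, and Mef2a 407 to 461 and 160 to 201. Heg1, the receptor that anchors that complex, was 376 to 441 in endothelial-like cells and at most 4.08 in microglia-like cells, and edgeR called it in choroid plexus-like cells (1.34), where 4.88% of all genes were called and where DESeq2 called 0 genes of this list. Of the transforming growth factor beta pathway, which raises Klf10, 1 of 11 genes was called in microglia-like cells. It was Smad7, its inhibitor, which rose 0.63, from 88.0 and 78.6 with inhibitors to 127 and 125 without them, and which DESeq2 did not call. None of 13 was called in endothelial-like cells by edgeR or DESeq2 (0 with an unadjusted p under 0.05 in edgeR), where the receptor genes Eng and Acvrl1 stood at 578 to 623 and 442 to 496.

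Hormone receptors and targets that bear on Klf9 gave no call in endothelial-like cells (6 tested) or microglia-like cells (7 tested) by edgeR or DESeq2, with 2 in each at an unadjusted p under 0.05 in edgeR. Tsc22d3, a glucocorticoid target, was 523 to 661 in endothelial-like cells, and the glucocorticoid receptor gene Nr3c1 was 177 to 219 there and 134 to 155 in microglia-like cells. Sgk1, another such target, was 430 and 291 in microglia-like cells without inhibitors and 267 and 220 with them, not called. Other Krüppel-like genes gave no call by either tool and no unadjusted p under 0.05 in edgeR, with 6 tested in endothelial-like and 4 in microglia-like cells. Klf13 was 419 to 564, Klf7 288 to 313 and Klf3 203 to 236 in endothelial-like cells, and Klf3 overlapped that range, at 196 to 208, in microglia-like cells. The same held for the related SP factors and for the co-repressors that bind these proteins. Sp3 stood at 83.8 to 102, Sp1 at 41.7 to 66.2, Ctbp1 at 178 to 250 and Ncor1 at 177 to 222 in endothelial-like cells.

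The patterns of other genes were set beside each member over 36 sums, 9 classes in 4 mice, by Pearson's r of log2 of the level plus 10. The points share libraries, and sums of 1 mouse share its dissociation, so r is a description. Among 10497 genes, the nearest to Klf2 were AW112010 (0.953), Bnip2 (0.951) and Klf4 (0.946). The nearest to Klf4 were Acvrl1, an endothelial receptor of bone morphogenetic proteins (0.976), Fn1, fibronectin (0.970), and Icam2, an adhesion molecule of endothelium (0.965). Klf6 was nearest to Mcl1, a survival factor (0.942), BC028528 (0.927) and H2-D1, a class I histocompatibility gene (0.916).

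Klf9 was nearest to Limch1 (0.928), Mast4 (0.918) and Nfib, a transcription factor of glia (0.905). Klf10 was nearest to St3gal1 (0.915), Rps6ka3 (0.897) and Tbc1d4 (0.887). Between members, Klf2 and Klf4 had r of 0.946, Klf2 and Klf6 0.881 and Klf2 and Klf10 0.860. Klf9 stood apart from the other 4, at 0.117 with Klf2, 0.357 with Klf4, 0.00494 with Klf6 and 0.193 with Klf10. The nearest genes depended on the measure. With 1 added in place of 10, or with Spearman's rho, Klf4 was nearest to Klf2 (0.952 and 0.949) and Klf2 to Klf4, and Klf10 was nearest to Myo1c (0.891) and to Klf4 (0.903). Mcl1 and Limch1 stayed nearest to Klf6 and Klf9 with 1 added, but Gnai2 (0.916) and Fermt2 (0.922) were nearest by rho. The values between members follow the class orders given above, in which Klf9 is the member that macroglia and neurons share with vessels.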

How the data were processed

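The authors counted reads with Cell Ranger 3.0.0 on mm10 with the filtered Ensembl annotation, and the deposited values are raw UMI counts per gene and barcode, 5134359 to 7529804 per library over 12487 barcodes in all, with no normalization. Counting by Cell Ranger is strand-aware and takes reads near the 3′ end, so levels of different genes were not compared. The submitters' processing notes also name bcl2fastq and Seurat.

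Barcodes with at least 400 genes and at most 20% mitochondrial UMIs were kept (10067), and 256 simulated-neighbour doublets (2.543%) were removed at a rate of 0.8% per 1000 barcodes of a library. This rate was set after results with another rate (from the barcodes that passed the filter) were known; the earlier rate is kept as an alternative chosen after seeing the data. Cells were clustered in scanpy 1.11.5 (2000 variable genes without Krüppel-like and activation genes, 30 components, 15 neighbours, Leiden resolution 1) and named from at least 3 markers. UMI counts were summed per mouse and class and tested in R 4.3.3 with edgeR 4.0.16 (filterByExpr, TMM, robust quasi-likelihood fit, inhibitor group as the only term), with adjustment over all genes. DESeq2 1.42.0, the tool of the study, was an alternative, with other scalings, filters, clusterings and each mouse left out. The test was tried on simulated data. Members, lists and tests were chosen with earlier results of these data known. Named genes were the 5 members, genes of the other lists called in a class, otherwise the 3 of a list with the highest level in endothelial-like or microglia-like cells, and the 3 nearest genes to each member. The result for a gene of the target list is not reported here. The cells outside named sub-clusters were tested after seeing the data. Each library is 1 mouse, so n is 2 mice per group, and the p-values rest, in a degree that differs by gene, on spread shared among genes. Sequences come from RefSeq on GRCm38.p6, matched by symbol for 4 of 5 members.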

Additional observations from a re-analysis of the deposited data

Results flagged for a closer look

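The effect of leaving out the inhibitors differed between endothelial-like and microglia-like cells for 3 of the 5 genes, by the class-by-group term of edgeR's quasi-likelihood fit, where 0.33% of 10012 genes were called. The difference, endothelial-like minus microglia-like, was -3.30 on the log2 scale for Klf2, -2.01 for Klf4 and -0.78 for Klf6. The p-values of this fit do not carry the spread between the 2 mice of a group, and the Klf6 difference was not called without replicate 1 of the mice without inhibitors (-0.43, adjusted p = 0.739 by edgeR) or when 1 of the mice with inhibitors was left out (-0.76 and -0.82). Over 8 other settings the call held in 8 for Klf2, 7 for Klf4 and 5 for Klf6. For each of these 3 genes both mice without inhibitors stood above both with them in microglia-like cells. The same held for 14.7% of all genes tested there. In endothelial-like cells the groups overlapped for all 3. Cells of the 2 classes came from the same suspensions, and a cause of the difference was not tested.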

How the results depend on the processing

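Of 585 values recomputed under other settings, 497 counted as kept. A fold change was kept if its direction and its side of the threshold stayed. A level or share was kept if it moved by less than the spread between mice. Numbers of members called entered too, kept if equal or close, and so did classes with few members tested and none called. Lists of nearest genes were kept if most genes stayed. The 497 is thus no measure of how stable the called results were. In microglia-like cells Klf2 was called under DESeq2 (3.25), without robust weighting (3.24, the value unchanged) and under the replicate block (3.17), and leaving out 1 mouse gave 2.54 to 3.72. Klf4 was not called under DESeq2 (1.95). Klf6 was called with no filter on low counts (0.81), without robust weighting (0.80), with stricter cell limits (0.80), with doublets kept (0.85), without cells holding an endothelial marker UMI (0.84) and under the replicate block (0.78), and leaving out 1 mouse gave 0.46 to 1.09. The number of members called was 2 with no filter, with stricter cell limits, with doublets kept and without cells holding an endothelial marker UMI, 3 without robust weighting and under the block, and 2 to 3 with 1 mouse left out. Replicate numbers are not said to pair mice. Deviations of same-numbered samples correlated at 0.04 in microglia-like and -0.01 in endothelial-like cells, at 0.11 over all cells and at -0.13 in neuron-like cells. The block changed no other call of a member.

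In macrophage/monocyte-like cells Klf2 was not called under DESeq2 (1.57), total UMIs (1.55), no robust weighting (1.57), stricter cell limits (1.55), doublets kept (0.89), the doublet rate used first (0.95, chosen after seeing the data), Leiden resolution 0.5 (0.97) or 2 (0.41), members kept in clustering (0.87) or without cells holding an endothelial marker UMI (1.21), and each then left 0 members called. Leaving out 1 mouse gave 1.29 to 1.88 and 0 to 1 called. Differences between endothelial-like and microglia-like cells with 1 mouse left out ran from -2.11 to -1.95 for Klf4 and from -1.21 to -0.43 for Klf6, with 1 to 3 members called. Values near 0 turned sign with 1 mouse left out. In microglia-like cells Klf9 then ran from -0.10 to 1.02 and Klf10 from -0.12 to 0.29. In endothelial-like cells Klf2 ran from -0.37 to 0.094, Klf4 from -0.19 to 0.059, Klf6 from -0.10 to 0.086 and Klf9 from -0.16 to 0.044, and Klf6 turned sign with stricter cell limits as well (0.0094). The lone mouse of a group is then assumed to vary like the others. The cause of these changes was not tested. Klf9 and Klf10 in microglia-like cells rest on 55 and 47 UMIs in all, and the change detectable at such counts was not computed. Intervals cover the model's spread and not other dissociations.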
